A study of Mus musculus with 6 samples.

Results

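A set of 10 genes of ADP-ribosylation were followed: 7 interferon-linked members (*Parp9*, *Parp10*, *Parp11*, *Parp12*, *Parp14*, *Zc3hav1* and *Dtx3l*) and 3 DNA repair members (*Parp1*, *Parp2* and *Parp3*). They were chosen by name in the table of counts, where a locus is listed with one or more gene names. All 10 were found, at 10 of 51499 loci, and all 10 were among the 14499 loci with enough counts to be tested. *Parp10* shares its locus with *Plec*, so 9 of the 10 loci carry 1 name.

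ADP-ribosyltransferases of the PARP family move ADP-ribose from NAD onto proteins or nucleic acids. PARP1 and PARP2 build chains of it at DNA strand breaks and recruit repair factors, and PARP3 adds single units at breaks. Many other members add single units or have lost the activity, and several of these are known as interferon-stimulated antiviral proteins. DTX3L is not a transferase of the family but a ubiquitin ligase that works in a complex with PARP9.

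The libraries were poly(A)-selected, strand-marked RNA-Seq libraries from wild-type mouse embryonic fibroblasts (MEFs). Cells were transfected with a scrambled siRNA (Scr, 3 libraries) or an siRNA against *Yme1l* (3 libraries) and harvested 72 h later. *Yme1l* (listed as *Yme1l1*) encodes the *i*-AAA protease of the mitochondrial inner membrane, and its acute knockdown was used to ask how its loss alters gene expression. The labels describe all cells as 3T3 immortalized with a WT genotype, whereas the study's methods describe MEFs from *Yme1l* loxP/loxP animals immortalized with SV40 large T antigen, so both groups share an immortalized background whose origin the sources give differently.

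The libraries held 37260605 to 45205207 counts. *Yme1l1* fell from 171 ± 0.425 CPM (the usual depth-scaled count; mean ± SD, n = 3) to 33.4 ± 10.9. The remaining level was 31.6, 23.4 and 45.0 CPM in Yme1l siRNA replicates 1, 2 and 3, so replicate 3 kept the most. Of the 7 fibroblast markers, 6 were tested and 5 were called lower after knockdown (edgeR adjusted p under 0.05, 29.6% of all loci tested). The list summed to 24557 to 31576 CPM in Scr and 14191 to 17150 CPM in Yme1l siRNA libraries, and *Thy1* reached at most 1 count. Most of that sum was collagen, with *Col1a1* alone at 11476 to 14654 CPM in Scr and 7275 to 9205 CPM after knockdown. *Vim* overlapped between the groups, at 3189 to 3817 and 2905 to 3298 CPM. Among the 6 leukocyte and macrophage markers, *Ptprc* and *Itgam* reached at most 3 counts, *Adgre1* had 0 and *Lyz2* reached at most 1.94 CPM. The list summed to 163 to 180 CPM in Scr and 242 to 255 CPM after knockdown, most of it *Csf1r* (109 to 134 against 183 to 222 CPM). *Cd68* overlapped between the groups, at 42.6 to 53.0 CPM in Scr and 25.7 to 58.2 CPM after knockdown. Endothelial markers summed to at most 1.92 CPM and epithelial markers to at most 0.529 CPM. The part of these marker changes in the results on PARP genes was not tested, and in bulk libraries fewer expressing cells and less RNA per cell cannot be told apart.

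Promoter sequence was described for the members with a window, DNA repair members included. Type I interferon acts on its target genes largely through the ISRE, bound by a complex that holds STAT2 and IRF9, and type II interferon through the GAS element. RefSeq windows (GRCm38.p6, 250 bases before to 50 bases after an annotated start) were given for 7 of the 10 members in 8 windows, with none for *Parp9*, *Parp10* and *Parp14*. The ISRE core, GAAA, any 2 bases and GAAA again (TTTC, any 2 bases and TTTC on the other strand), was present in 1 of the 8 windows, against 3.44% of all 32851 windows. The GAS letters TTCNNNGAA, which read the same on both strands, were in the same window, against 8.3% of all windows. That window belongs to the upstream start of *Parp11*, where TTTCGATTTC begins 44 bases before the start and TTCTTGGAA 37 bases before it, overlapping by 3 bases. A second *Parp11* window at a downstream start held neither. The 250 bases before the start are shown 5′ to 3′ on the gene's strand for the 4 interferon-linked members with a window, with capitals for the overlapping ISRE and GAS letters. They lie at chr6:127446590-127446839 on the plus strand (*Parp11*), chr16:35939028-35939277 on the minus strand (*Dtx3l*), chr6:39118350-39118599 on the minus strand (*Parp12*) and chr6:38354604-38354853 on the minus strand (*Zc3hav1*). The *Dtx3l* bases lie inside the annotated *Parp9* gene. Those from 35939028 to 35939151 also lie inside the *Dtx3l* gene at the extent given below, so not all of them are upstream of it.
Parp11: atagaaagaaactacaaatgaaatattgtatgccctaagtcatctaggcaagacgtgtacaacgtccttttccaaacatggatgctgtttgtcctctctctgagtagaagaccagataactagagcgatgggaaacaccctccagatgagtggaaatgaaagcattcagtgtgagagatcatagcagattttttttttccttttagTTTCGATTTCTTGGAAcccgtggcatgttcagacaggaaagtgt
Dtx3l: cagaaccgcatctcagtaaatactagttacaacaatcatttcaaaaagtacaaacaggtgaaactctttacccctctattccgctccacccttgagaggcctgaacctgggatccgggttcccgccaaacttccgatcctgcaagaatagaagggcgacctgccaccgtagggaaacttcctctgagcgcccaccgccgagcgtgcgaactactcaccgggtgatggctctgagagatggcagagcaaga
Parp12: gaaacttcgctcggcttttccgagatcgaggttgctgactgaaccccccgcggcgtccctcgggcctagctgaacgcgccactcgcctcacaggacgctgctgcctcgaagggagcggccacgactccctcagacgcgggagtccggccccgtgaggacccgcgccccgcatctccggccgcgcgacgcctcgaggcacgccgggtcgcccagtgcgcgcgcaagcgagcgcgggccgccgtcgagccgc
Zc3hav1: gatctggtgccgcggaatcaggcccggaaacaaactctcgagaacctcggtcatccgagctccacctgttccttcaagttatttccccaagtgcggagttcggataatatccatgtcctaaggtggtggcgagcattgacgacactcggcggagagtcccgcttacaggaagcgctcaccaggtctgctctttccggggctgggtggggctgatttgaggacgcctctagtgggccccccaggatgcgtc
No capitals appear in the last 3 sequences, which says only that these exact letters are not in those windows. Letters of a motif are a description and were not shown to be bound or used.

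All 7 interferon-linked loci were higher after *Yme1l* knockdown and none was lower (edgeR quasi-likelihood test, Benjamini-Hochberg adjusted p under 0.05 over all 14499 loci). Across all loci, 28.4% were called higher and 29.6% lower, 58.0% in either direction. The 6 loci that carry 1 name rose by 0.56 to 1.94 on the log2 scale, with a median of 1.19, and the median with the joined *Parp10* locus was 0.82, against 0.01 over all loci. Of the 3 DNA repair members, *Parp1* was higher, *Parp3* was lower and *Parp2* was not called. Groups did not overlap in the higher direction at 5 of the 7 interferon-linked loci (31.9% of all loci), and 3 of the 7 were called and at least 2-fold higher (8.18% of all loci). Without the joined *Parp10* locus, 6 of 6 were called higher, 4 did not overlap and 3 were at least 2-fold higher. No member was called and at least 2-fold lower (7.28% of all loci). The members were selected knowing earlier results of these libraries, so their counts are a description and carry no test of the list.

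*Parp14*, *Parp12* and *Dtx3l* rose most. *Parp14* encodes a large mono-ADP-ribosyltransferase with macrodomains, which bind ADP-ribose, and lies at chr16:35832874-35871544 on the minus strand. Its level was 43.7, 36.1 and 32.8 CPM in Scr replicates 1 to 3 and 165, 191 and 76.1 CPM in Yme1l siRNA replicates 1 to 3. Every knockdown library lay above every Scr library, with replicate 3 far under the other two of its group. The mean went from 37.5 ± 5.63 to 144 ± 60.4 CPM, a 3.84-fold difference (log2 1.94, SE 0.30, edgeR adjusted p = 0.000699). A share of 97.4% of all loci had a lower log2 fold change.

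*Parp12*, a mono-ADP-ribosyltransferase with CCCH zinc fingers and known antiviral activity, lies at chr6:39086410-39118349 on the minus strand. It was at 42.2, 34.3 and 26.8 CPM in the Scr libraries and 129, 132 and 67.8 CPM after knockdown. The groups did not overlap, and replicate 3 was again the lowest of its group. Its mean rose 3.19-fold, from 34.4 ± 7.70 to 110 ± 36.4 CPM (log2 1.67, SE 0.26, edgeR adjusted p = 0.000713).

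*Dtx3l*, the ubiquitin ligase partner of PARP9, lies at chr16:35926511-35939151 on the minus strand. Scr libraries gave 26.7, 20.3 and 20.8 CPM and Yme1l siRNA libraries 77.3, 76.4 and 47.1 CPM. The lowest knockdown library, replicate 3, lay above the highest Scr library. The rise was 2.96-fold, from 22.6 ± 3.54 to 66.9 ± 17.2 CPM (log2 1.57, SE 0.19, edgeR adjusted p = 0.000218). For *Parp14*, *Parp12* and *Dtx3l* the call held when each library was left out in turn, with log2 fold changes of 1.69 to 2.24, 1.52 to 1.92 and 1.45 to 1.76.

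*Zc3hav1* encodes the zinc-finger antiviral protein (PARP13), which lacks transferase activity and binds CpG-rich viral RNA, and lies at chr6:38305286-38354603 on the minus strand. Its level was 137, 135 and 121 CPM in Scr and 251, 255 and 186 CPM after knockdown. Groups were fully separate. The 1.76-fold rise, from 131 ± 8.97 to 231 ± 38.7 CPM, was smaller than those above (log2 0.82, SE 0.12, edgeR adjusted p = 0.000635, 0.75 to 0.95 with each library left out).

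ZC3HAV1 works with cofactors that help it to destroy RNA, and 2 of the 3 listed ones rose (28.4% of all loci were called higher). *Trim25*, a ubiquitin ligase, went from 88.3 ± 16.8 to 186 ± 28.2 CPM (log2 1.08, SE 0.16, edgeR adjusted p = 0.000495). *N4bp1*, a ribonuclease, went from 63.2 ± 3.52 to 79.8 ± 4.40 CPM (log2 0.33, SE 0.07, adjusted p = 0.00449). The endonuclease gene *Khnyn* stood at 45.5 ± 7.11 and 45.4 ± 2.31 CPM and was not called (adjusted p = 0.983). The median of the list was 0.33, against 0.01 over all loci.

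*Parp9* and *Parp11* rose less, and both calls depended on single libraries. *Parp9*, the macrodomain partner of DTX3L, lies at chr16:35938470-35972605 on the plus strand. Its level was 50.8, 45.1 and 37.8 CPM in Scr and 74.4, 72.9 and 50.5 CPM after knockdown. Replicate 3 of the knockdown fell just under Scr replicate 1, so the groups overlapped. Its mean rose 1.48-fold, from 44.6 ± 6.52 to 65.9 ± 13.4 CPM (log2 0.56, SE 0.16, edgeR adjusted p = 0.0151). The call was lost without Scr replicate 3 (log2 0.45, adjusted p = 0.0539) and without Yme1l siRNA replicate 1 (log2 0.47, adjusted p = 0.0578), and the value was 0.72 without Yme1l siRNA replicate 3.

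*Parp11*, a mono-ADP-ribosyltransferase with a WWE domain, lies at chr6:127446840-127494261 on the plus strand and is the member whose promoter letters are capitalised above. It was at 18.4, 18.4 and 15.8 CPM in Scr and 29.9, 32.4 and 17.2 CPM after knockdown. Yme1l siRNA replicates 1 and 2 lay above all Scr libraries, whereas replicate 3 lay below 2 of them. The fitted rise was 1.51-fold, from 17.5 ± 1.53 to 26.5 ± 8.15 CPM (log2 0.60, SE 0.21, edgeR adjusted p = 0.0366). It was called in only 1 of the 6 fits that left a library out, the one without Yme1l siRNA replicate 3 (log2 0.83). The adjusted p was 0.0694, 0.0757 and 0.110 without Scr replicates 1, 2 and 3 and 0.116 without Yme1l siRNA replicate 1 or 2, with log2 values of 0.44 to 0.63.

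*Parp10*, a mono-ADP-ribosyltransferase (chr15:76231174-76243441, minus strand), could not be measured apart from *Plec*, which encodes the cytoskeletal linker plectin. Both genes lie on the same strand and share 205 exon bases, and the table gives a single count for them. Only 4275 of the 22183 annotated exon bases of the joined locus (19.3%) belong to *Parp10*. The joined locus was at 1026, 1093 and 1132 CPM in Scr and 1527, 1535 and 1393 CPM after knockdown, without overlap (log2 0.45, SE 0.08, edgeR adjusted p = 0.00147). This value cannot be read as *Parp10*.

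**Figure D1:**
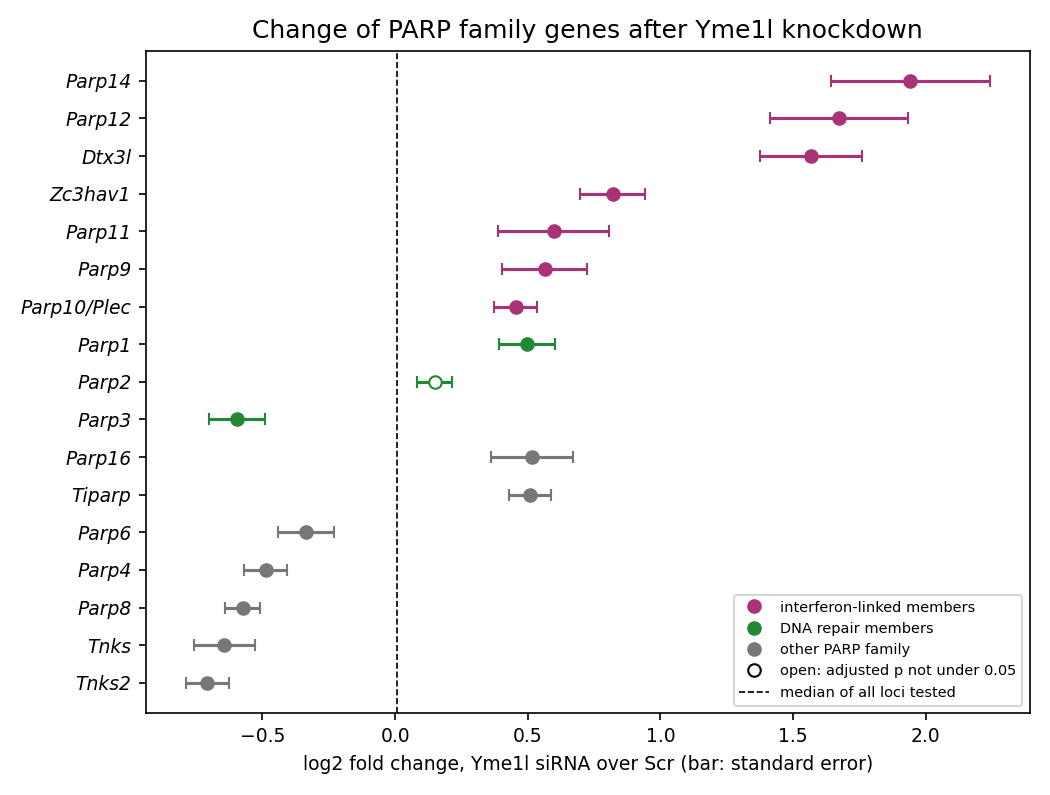
log2 fold change (Yme1l siRNA over Scr) with its standard error for the 10 members and the 7 other PARP genes, filled where the edgeR adjusted p was under 0.05. The 6 interferon-linked loci with 1 name lie from 0.56 to 1.94, above the dashed median of all loci (0.01). *Parp10* is plotted as the locus it shares with *Plec*, at 0.45. Of the 7 other PARP genes, 5 lie below the median.

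The 3 DNA repair members moved differently from one another. *Parp1*, the main sensor of DNA strand breaks, lies at chr1:180568924-180601254 on the plus strand. It was at 88.3, 79.9 and 92.3 CPM in Scr and 120, 108 and 140 CPM after knockdown. The groups did not overlap (either direction, 65.4% of all loci), and replicate 3 was here the highest of the knockdown libraries. The rise was 1.41-fold, from 86.8 ± 6.31 to 123 ± 16.3 CPM (log2 0.50, SE 0.11, edgeR adjusted p = 0.00370), and held with each library left out (0.39 to 0.59). Its size is close to that fitted for *Parp9* and *Parp11*, whose standard errors reach it. The difference between *Parp1* and these members was not tested.

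*Parp2*, which shares the break-sensing role, lies at chr14:50807841-50821301 on the plus strand. Levels were 41.6, 45.0 and 45.6 CPM in Scr and 47.9, 47.5 and 51.2 CPM after knockdown. Although all 3 knockdown libraries lay above all Scr libraries, the difference was small (44.1 ± 2.19 against 48.9 ± 2.01 CPM, log2 0.15, SE 0.07) and was not called (edgeR adjusted p = 0.0893). It was called when libraries were scaled by their totals alone (log2 0.21, adjusted p = 0.0388) and when testing was limited to loci averaging 50 counts or more (log2 0.18, adjusted p = 0.0413).

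*Parp3*, a mono-ADP-ribosyltransferase of double-strand break repair, lies at chr9:106470322-106476949 on the minus strand and was the only member that fell. Scr libraries were within a narrow range at 136, 140 and 141 CPM, and knockdown libraries were at 88.9, 107 and 79.8 CPM. Every knockdown library was below every Scr library (in this direction, 33.6% of all loci). The mean went from 139 ± 2.90 to 91.9 ± 14.0 CPM (log2 -0.59, SE 0.11, edgeR adjusted p = 0.00150), and the call held with each library left out (-0.71 to -0.50). The annotated gene overlaps *Rrp9* on the opposite strand by 987 bases, of which 20 are exonic in both.

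Factors that act with PARP1 at strand breaks moved in both directions. Of 7 tested genes, 3 rose, 2 fell and 2 were not called, with a median of 0.21. Across all loci 28.4% rose and 29.6% fell, so these counts lie near the background. *Chd1l*, a chromatin remodeller that binds poly(ADP-ribose), went from 19.8 ± 2.89 to 33.1 ± 1.83 CPM (log2 0.74, SE 0.11, edgeR adjusted p = 0.000575). *Hpf1*, which directs PARP1 and PARP2 to serine, rose by 0.54 (SE 0.07, adjusted p = 0.000317), and the scaffold gene *Xrcc1* by 0.57 (SE 0.09, adjusted p = 0.000723). *Lig3*, the DNA ligase that binds XRCC1, went the other way, from 78.9 ± 2.73 to 46.5 ± 9.65 CPM (log2 -0.76, SE 0.14, adjusted p = 0.00148). The end-processing gene *Aptx* fell slightly (log2 -0.29, adjusted p = 0.00791). *Polb* (log2 0.16, adjusted p = 0.164) and *Aplf* (log2 0.21, adjusted p = 0.181) were not called.

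Of the 7 remaining PARP genes, 5 were lower and 2 higher (29.6% and 28.4% of all loci), with a median of -0.49 and a range of -0.71 to 0.51. The tankyrases, which build ADP-ribose chains on telomeric and Wnt-pathway proteins, both fell: *Tnks2* went from 252 ± 17.5 to 155 ± 9.57 CPM (log2 -0.71, SE 0.08, edgeR adjusted p = 0.000148) and *Tnks* from 140 ± 12.3 to 89.4 ± 12.7 CPM (log2 -0.64, SE 0.11, adjusted p = 0.00148). *Parp8* fell by 0.57 on the log2 scale (SE 0.07, adjusted p = 0.000162), the vault-particle member *Parp4* by 0.49 (SE 0.08, adjusted p = 0.000986) and *Parp6* by 0.34 (SE 0.11, adjusted p = 0.0247). *Tiparp*, a target of the aryl hydrocarbon receptor that is also known to restrain interferon signalling, rose from 44.8 ± 2.29 to 63.8 ± 5.18 CPM (log2 0.51, SE 0.08, adjusted p = 0.000747). *Parp16*, a protein of the endoplasmic reticulum membrane, rose by 0.51 (SE 0.15, adjusted p = 0.0197). Groups did not overlap at any of the 7 (65.4% of all loci in either direction). The calls of *Parp6* and *Parp16* were lost with single libraries left out, *Parp6* without Scr replicate 3 (-0.29), Yme1l siRNA replicate 1 (-0.35) or replicate 3 (-0.26), and *Parp16* without Scr replicate 2 (0.52), Scr replicate 3 (0.40) or Yme1l siRNA replicate 2 (0.46), where adjusted p was 0.0526 to 0.0669. With library totals only, *Parp6* also lost its call (log2 -0.27, adjusted p = 0.0718), leaving 4 lower.

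Of 7 genes that remove ADP-ribose, 6 were tested, 3 fell and none rose (29.6% of all loci fell and 28.4% rose), with a median of -0.37. *Macrod1*, a mitochondrial hydrolase of single ADP-ribose units, fell from 9.49 ± 2.25 to 2.81 ± 0.443 CPM (log2 -1.76, SE 0.21, edgeR adjusted p = 0.000189). *Adprh*, which frees arginine, fell from 58.6 ± 1.80 to 27.6 ± 2.40 CPM (log2 -1.08, SE 0.08, adjusted p = 1.89e-05), and *Macrod2* from 3.46 ± 0.163 to 2.04 ± 0.502 CPM (log2 -0.76, SE 0.21, adjusted p = 0.0124). The authors' pooled FPKM for *Macrod2* ran the other way, at 1.26 in Scr and 2.28 after knockdown. *Parg*, the main hydrolase of the chains, was at 62.5 ± 3.69 and 63.6 ± 3.03 CPM (log2 0.03, adjusted p = 0.782). *Oard1* (0.06) and *Adprhl2* (0.10) were not called, and *Adprhl1* was too low to be tested.

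NAD, the substrate of the family, is made by several routes. Of 9 listed genes, 7 were tested, of which 2 rose and 3 fell (28.4% and 29.6% of all loci, so the count higher lies at the background), with a median of -0.30. *Nampt*, the rate-limiting enzyme of NAD salvage from nicotinamide, rose from 83.5 ± 1.16 to 131 ± 8.93 CPM (log2 0.65, SE 0.07, edgeR adjusted p = 0.000133). *Nmnat3*, known as the mitochondrial form of the next enzyme, fell from 11.3 ± 0.443 to 5.69 ± 0.354 CPM (log2 -0.99, SE 0.11, adjusted p = 0.000117), and *Naprt*, of the nicotinic acid route, from 3.62 ± 0.772 to 1.54 ± 0.420 CPM (log2 -1.23, SE 0.26, adjusted p = 0.00370). *Nadsyn1* rose by 0.42 (adjusted p = 0.0294), a call lost without Scr replicate 1 (0.35), Scr replicate 2 (0.35) or Yme1l siRNA replicate 2 (0.36). *Nmnat2*, at 1.62 CPM in Scr, fell by 0.99 (adjusted p = 0.0354) and kept its call only without Yme1l siRNA replicate 2 among the fits that left 1 library out, with values of -1.08 to -0.73 in the other 5. *Nmnat1* (-0.09) and *Nmrk1* (-0.30) were not called, and *Nmrk2* and *Qprt* were too low to be tested.

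A group of 3 members are neighbours on chromosome 16. *Parp14*, *Dtx3l* and *Parp9* span 139.7 kb, with 55.0 kb between *Parp14* and *Dtx3l*, and *Dtx3l* and *Parp9* start head to head on opposite strands. All 3 rose, by 1.94, 1.57 and 0.56. On one side, the 2 nearest tested protein-coding genes were *Hspbap1*, which rose from 17.4 ± 1.13 to 30.0 ± 1.70 CPM (log2 0.78, SE 0.08, edgeR adjusted p = 0.000101), and *Dirc2*, which fell from 41.7 ± 2.40 to 19.7 ± 1.71 CPM (log2 -1.08, SE 0.09, adjusted p = 2.77e-05). On the other side, *Kpna1*, which encodes an importin, stood at 63.9 ± 2.36 and 69.6 ± 5.23 CPM (log2 0.12, adjusted p = 0.187) and *Wdr5b* at 3.86 ± 0.291 and 2.93 ± 0.714 CPM (log2 -0.40, adjusted p = 0.126). Without Yme1l siRNA replicate 2 *Kpna1* was called (log2 0.19, adjusted p = 0.0474), and without replicate 3 *Wdr5b* (log2 -0.56, adjusted p = 0.0467).

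The head-to-head pair rose unequally. The log2 ratio of *Parp9* to *Dtx3l*, from CPM in the same library, was 0.93, 1.15 and 0.86 in Scr and -0.06, -0.07 and 0.10 after knockdown. The groups did not overlap, and the mean went from 0.98 ± 0.15 to -0.01 ± 0.09, a difference of -0.99. Over 3 against 3 libraries the exact two-sided permutation p was 0.1, the smallest this design allows, and 0.1 after adjustment over the 2 ratios tested. The ratio of *Parp14* to *Parp9* moved from -0.25 ± 0.06 to 1.05 ± 0.41, a difference of 1.29 with the same exact p of 0.1. With each library left out the differences were -1.05 to -0.91 and 1.12 to 1.52. The annotated *Parp9* and *Dtx3l* genes overlap by 682 bases, and 458 exon bases are shared between strands, 9.40% of those of *Parp9* and 8.0% of those of *Dtx3l*. Whether counting used strand is not given in the sources used here, so reads from the shared bases cannot be assigned.

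Levels were compared between genes per kb of annotated exon. In Scr the order was *Parp3* (37.5 ± 0.785 CPM per kb), *Zc3hav1* (20.1 ± 1.38), *Parp1* (16.4), *Parp2* (12.1), *Parp9* (9.15), *Parp12* (8.62), *Parp14* (4.03), *Dtx3l* (3.94) and *Parp11* (2.49). Only *Parp9* with *Parp12* and *Parp14* with *Dtx3l* overlapped with their neighbour in this order. After knockdown *Zc3hav1* came first (35.4 ± 5.94 CPM per kb), followed by *Parp12* (27.5), *Parp3* (24.9), *Parp1* (23.2), *Parp14* (15.5), *Parp9* (13.5), *Parp2* (13.5), *Dtx3l* (11.7) and *Parp11* (3.77). Every neighbouring pair overlapped there except *Dtx3l* and *Parp11*. By these means *Parp12* moved from the sixth place to the second, and *Parp3* from the first to the third. By the authors' pooled FPKM, which have no error, *Parp12* moved from the sixth place to the fourth and *Parp3* from the first to the second. Other ranks differed too, with *Parp2* at 28.9 in Scr and 38.3 after knockdown and *Parp11* at 7.68 and 11.0.

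Within each group, the interferon-linked members ordered the libraries in a similar but not identical way. Yme1l siRNA replicate 3 was the lowest of its group at all 6 loci with 1 name (38.5% of all loci), and the highest knockdown library exceeded the lowest by 1.37 to 2.51-fold. The highest knockdown library was replicate 1 for *Parp9* and *Dtx3l* and replicate 2 for the other 4. Scr replicate 1 was highest at 5 of the 6 (31.2% of all loci) and Scr replicate 3 lowest at 5 (39.3% of all loci). The exceptions were *Parp11*, highest in Scr replicate 2, and *Dtx3l*, lowest in Scr replicate 2. Relative to the Scr mean, *Parp14* stood at 2.15, 2.36 and 1.03 on the log2 scale in Yme1l siRNA replicates 1, 2 and 3, and *Parp11* at 0.78, 0.89 and -0.02. *Parp1* was instead highest in replicate 3, at 0.47, 0.32 and 0.69, and *Parp3* lowest there, at -0.64, -0.37 and -0.80. Among knockdown libraries, replicate 3 also had the most *Yme1l1* left. In Scr, where replicate 3 was lowest at 5 of the 6 loci, *Yme1l1* stood at 170.5, 171.3 and 170.6 CPM in replicates 1, 2 and 3. The part of the remaining *Yme1l1*, or of the replicate number, in this order was not tested.

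The type I interferon axis, which induces such members, was measured in the same libraries. Of 8 tested genes 6 rose (28.4% of all loci), none fell and 2 were not called, with a median of 0.86. Of these, *Irf9* is joined with *Rnf31*, and *Ifnar2*, a receptor gene, with *Il10rb* and *Gm21970*. Among the 6 loci that carry 1 name, 4 rose, with a median of 1.09. *Ifnb1*, the cytokine gene, had 3, 1 and 0 counts in Scr and 37, 60 and 11 after knockdown (edgeR adjusted p = 0.00233), too few in Scr for a fold change. *Irf7*, the transcription factor that amplifies interferon production, rose from 26.8, 19.3 and 7.09 CPM to 162, 190 and 68.1 CPM (log2 2.98, SE 0.50, adjusted p = 0.00114). The locus joining *Irf9*, the DNA-binding part of the interferon-activated complex, with *Rnf31* rose by 1.19 (SE 0.18, adjusted p = 0.000677). *Stat2*, another part of that complex, was at 62.8, 49.4 and 32.8 CPM in Scr and 171, 201 and 81.0 CPM after knockdown (log2 1.64, SE 0.33, adjusted p = 0.00309). In *Ifnb1*, *Irf7* and *Stat2*, as in most interferon-linked members, Scr replicate 1 was highest and replicate 3 lowest in each group. *Irf3*, the factor upstream of *Ifnb1*, was at 37.9 ± 3.46 and 33.0 ± 1.16 CPM without overlap but was not called (log2 -0.20, adjusted p = 0.0635), and the receptor gene *Ifnar1* was at 100.2 ± 2.2 and 97.1 ± 2.09 CPM (log2 -0.05, adjusted p = 0.559).

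Genes outside the lists that followed the mean of the 7 interferon-linked loci most closely over the 6 libraries were *Ube2l6*, *H2-K1*, *Sgms2* and *H2-T22*, each with a Pearson r of 0.997 on log2 CPM, and *Pdk3* with 0.996. The 6 points share libraries and fall in the 2 groups compared, so r is given as a description. *Ube2l6*, the conjugating enzyme of ISG15, went from 15.3 ± 3.43 to 81.0 ± 37.2 CPM (log2 2.41). *H2-K1*, an MHC class I heavy chain, rose by 2.61 on the log2 scale and *H2-T22* by 1.47, values that are uncertain because class I genes resemble each other and can share reads. *Sgms2*, a sphingomyelin synthase, rose by 0.65 and *Pdk3*, a pyruvate dehydrogenase kinase, by 0.60.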

How the data were processed

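RNA-Seq libraries of MEFs treated with Scr or Yme1l siRNA for 72 h (3 each) were compared. Per the labels and the study's methods, the authors made TruSeq stranded poly(A) libraries, and their processing notes name HISAT2 2.0.4, StringTie 1.3.3 and Cuffdiff 2.2.1 on GRCm38. The authors deposited raw counts per assembled locus, and the program and strand setting used for counting are not given in the sources used here. They also deposited FPKM pooled per group, printed here as the authors' values, and columns of their own fold changes, p and q values, which were not used. A locus can join overlapping genes, as 398 of the 14499 tested loci do.

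Raw counts were filtered (filterByExpr, minimum count 10, minimum total count 15), scaled by TMM and tested with edgeR 4.0.16 (quasi-likelihood, R 4.3.3), with Benjamini-Hochberg adjustment over 14499 loci and a threshold of 0.05. Log2 fold changes are Yme1l siRNA minus Scr. CPM are TMM-scaled, and values per kb use merged exons of the GENCODE annotation (GRCm38). Replicates are numbered in the labels and are separate cultures per the study's methods. Pairs of libraries differed by more than sampling noise. On simulated data with 200 loci changed 2-fold among 14321, the test recovered 160, with 4 false calls. Far fewer loci changed there than were called in the real libraries (58.0%), so these counts do not measure the false calls of the real comparison. Alternatives were DESeq2 1.42.0, limma-voom 3.58.1, other scalings and filters, a threshold of 0.01, a replicate block and leaving out each library. The members, lists and tests were chosen with earlier results of these data known. Named genes were the members, the 3 called genes with the smallest adjusted p of each list and those that moved apart from it, the 2 nearest tested genes on each side of the chromosome 16 group, and the 5 genes of like pattern (mean over the 6 libraries of log2(CPM + 0.01) of at least 3). Other list members, *Stat2* included, were added after their values were seen. Protein sequences were not analysed here. A gene of the break repair list and one of the interferon axis list are not reported here and were left out of the counts and medians. Depth was 37260605 to 45205207 counts per library.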

Additional observations from a re-analysis of the deposited data

How the results depend on the processing

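Of the 10 members, *Parp12*, *Parp14*, *Zc3hav1*, *Dtx3l*, *Parp1*, *Parp3* and the joined *Parp10* locus kept direction and call under all 15 alternatives, and no member reversed. *Parp9* (0.56) and *Parp11* (0.60) missed an adjusted p of 0.01 in the main edgeR fit, and *Parp11* lost its call with limma-voom (0.55). With each library left out, *Parp9* ranged from 0.45 to 0.72, *Parp11* from 0.44 to 0.83 and the DNA repair median from 0.10 to 0.18. With library totals only, the repair members called higher were 2 (4589 of all 14499 loci), their median was 0.21 and *Parp2* was called (0.21). With a mean of at least 50 counts they were also 2 (3826 among all loci kept), with *Parp2* called at 0.18. The interferon-linked median was 1.19 without the joined locus, an alternative chosen after seeing the data. Higher calls among the other PARP genes and among the NAD supply genes were 1 each at an adjusted p under 0.01 (2949 of all 14499 loci). They ranged from 1 to 2 with a library left out. By the authors' pooled FPKM, 3 of 9 members held the same rank in Scr and 4 after knockdown, and the cause was not tested.

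Replicate numbers were not taken as pairs in the main fit. Deviations of same-numbered libraries from their group means correlated at 0.04, 0.12 and 0.19, and those of differently numbered libraries at -0.18 to 0.09. For each knockdown library the same-numbered Scr library gave the highest value. Whether same-numbered cultures shared handling was not tested. With the replicate number as a block, the interferon-linked median was 0.81 and 7 of 7 were called higher (4227 of all 14499 loci). Under that block *Irf3* was called, making 1 lower gene in the interferon axis. Under it the edgeR adjusted p was 0.000572 for *Parp9* (log2 0.55) and 0.00853 for *Parp11* (log2 0.55). With 3 libraries a group, calls near the threshold, such as those of *Parp9* and *Parp11* in the main fit, moved with single libraries.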
